A study of Mus musculus with 16 samples.

Results

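Neuroendocrine cells, islet cells among them, store peptide hormones in dense-core granules and release them when calcium enters the cell, using much the same proteins that neurons use at synapses. The genes described here encode that machinery in whole mouse pancreas. They are 38 named genes, all of which are among the 24411 genes of the count table, and 36 of them passed the filter on low counts that 13660 genes passed. They were chosen by function: the membrane fusion proteins, their calcium sensors, docking and priming factors, Rab GTPases, vesicle membrane proteins, granule proteins and calcium channel pores. Ins2, an insulin gene, was carried beside them as the measure of islet content.

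Bulk RNA-seq was made from pulverized pancreas of 16 male mice, C57BL6/J, all 12 weeks old. There were 5 lean WT mice, 7 Lep(ob/ob) mice, which lack functional leptin and become obese, and 4 Lep(ob/ob) mice that had been given an antagonist of the receptors for cholecystokinin (CCKR-I) in drinking water from 6 weeks of age for 6 weeks. Of these 4, 2 received proglumide at 0.1 mg/mL (mice 69 and 72) and 2 received lorglumide at 0.05 mg/mL (mice 74 and 76). The sources used here differ on the WT mice, which the labels give as raised in the laboratory's own colony and the methods as bought from the vendor of the Lep(ob/ob) mice. If the labels hold, the source of the animals and the genotype cannot be told apart. WT mice weighed 27.7 ± 3.22 g, untreated Lep(ob/ob) mice 51.0 ± 1.98 g and CCKR-I mice 54.8 ± 2.22 g (mean ± SD over 5, 7 and 4 animals).

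The labels put the libraries in 2 batches, called A and B here. Of the WT mice 3 were in batch A and 2 in batch B, of the untreated Lep(ob/ob) mice 4 and 3, and all 4 CCKR-I mice were in batch B. Libraries held 19.2 to 34.5 M counts in batch A and 9.87 to 15.9 M in batch B, and the 50 most counted genes, largely digestive enzymes, took 48.3 to 84.6% of them. Levels are given as CPM, counts per M counts scaled by the TMM method of edgeR, and the members below 1 CPM rest on the fewest reads and are the least precise.

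Regulated release begins with a SNARE complex of the vesicle protein VAMP2 and the plasma membrane proteins syntaxin 1A and SNAP25. Munc13 and CAPS proteins prime the granule, complexins hold the complex, and synaptotagmins bind calcium that enters through voltage-gated channels and so trigger fusion. In the pancreas this machinery is known mainly from islet cells and nerve endings, while acinar cells release zymogen granules with other members of the same families.

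Some promoters of genes of this kind are known to carry RE1 elements, which bind the repressor REST in cells outside the nervous and endocrine systems. RefSeq promoters on GRCm38.p6, 300 bases each, matched 27 of the 38 genes by symbol. The left part of the element, TCAGCACC, was searched on both strands and found in the promoters of Ptprn2, Syn1 and Unc13a, 3 of 27, against 1.85% of the 27025 genes with a promoter. The right part, GGACAGCG, was found in Ptprn2, Slc18a2 and Unc13a, against 1.48% of all genes, and 12 of the 27025 genes had both parts. Windows of 130 bases that hold these letters are shown for Unc13a (chr8:71671728-71671857, minus strand, ending at base 30 of the transcript), Ptprn2 (chr12:116485620-116485749, plus strand, ending likewise) and Syn1 (chrX:20921039-20921168, minus strand, upstream of the start). Capitals mark the matches, which in Unc13a and Ptprn2 are written as the reverse complement of the letters searched.
Unc13a: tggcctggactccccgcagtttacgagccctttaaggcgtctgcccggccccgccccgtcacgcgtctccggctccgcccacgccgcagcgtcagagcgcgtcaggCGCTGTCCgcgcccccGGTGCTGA
Ptprn2: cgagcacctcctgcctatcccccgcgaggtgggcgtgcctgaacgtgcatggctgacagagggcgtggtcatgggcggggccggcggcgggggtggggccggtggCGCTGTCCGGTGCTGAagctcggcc
Syn1: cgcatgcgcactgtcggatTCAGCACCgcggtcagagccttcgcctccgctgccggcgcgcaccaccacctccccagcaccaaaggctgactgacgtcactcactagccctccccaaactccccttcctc
In Unc13a the parts start at bases 7 and 23 of the transcript and in Ptprn2 they touch, at bases 6 and 14. These matches are descriptions of the letters only, and of the 3 genes shown, Unc13a and Syn1 rose in Lep(ob/ob) mice and Ptprn2 did not pass the test, as given below.

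Ins2 itself was taken as the scale for islet content, though Ins2 per beta cell and the number of beta cells cannot be told apart. Its level was 654, 688 and 719 CPM in the WT mice of batch A, and 649.9 and 481 CPM in those of batch B. In untreated Lep(ob/ob) mice, called obese mice below, it was 6536, 6617, 4901 and 4727 CPM in batch A but 1558, 1253 and 2871 CPM in batch B. No obese mouse reached down to the WT range, yet every obese mouse of batch B lay below every obese mouse of batch A. The CCKR-I mice were at 518 and 2361 CPM on proglumide and 3033 and 6476 CPM on lorglumide, so mouse 69 lay within the WT range. With batch in the model, Ins2 in untreated obese mice exceeded WT by 2.49 ± 0.47 on the log2 scale (SE; edgeR quasi-likelihood test, adjusted p = 0.0033).

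Many genes of the machinery rose in obese mice. In Lep(ob/ob) against WT mice, 21 of the 36 members tested were higher and 1, Rims1, was lower (edgeR, adjusted p below 0.05), where 5.93% of all 13660 genes were called higher and 3.14% lower. The median log2 fold change was 1.55 over the members and -0.02 over all genes tested. The filter required about 0.667 counts per M counts of the unscaled library total in 4 mice. In WT mice 10 of the 36 members did not reach that: Syt14, Doc2b, Rab3c, Rims2, Sv2a, Rab3b, Syt5, Slc18a1, Unc13a and Syn1. On the TMM-scaled CPM given elsewhere some of them lie above that value in WT mice, as Unc13a does at 0.791 to 1.10 CPM. Having passed through the obese mice, these 10 members tend to be higher there by the filter itself. Of them 8 were called, as were 15.9% of the 2147 such genes in all. Of the 26 that reached it in WT mice, 13 were called higher, where 4.06% of 11513 genes were, and their median was 0.63. For 16 members every Lep(ob/ob) mouse lay above every WT mouse, which held for 2.92% of all genes tested. The other 5 called members, Syt5, Syt14, Doc2b, Unc13a and Cacna1c, had at least 1 obese mouse within the WT range. In bulk tissue, more cells of a type and more RNA per cell cannot be told apart.

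Among the members the results turn on, Snap25 lies at chr2:136713453-136782428, Syt13 at chr2:92915098-92956058, Unc13a at chr8:71624417-71671757, Rims1 at chr1:22286251-22805994, Syp at chrX:7638471-7653256, Ptprn at chr1:75247027-75264502, Pam at chr1:97795114-98095646 and Scg3 at chr9:75643189-75684056 (GRCm38, whole genes). Doc2b (chr11:75768966-75796049) and Rph3al (chr11:75830999-75938429) lie near each other on the same strand.

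**Figure D1:**
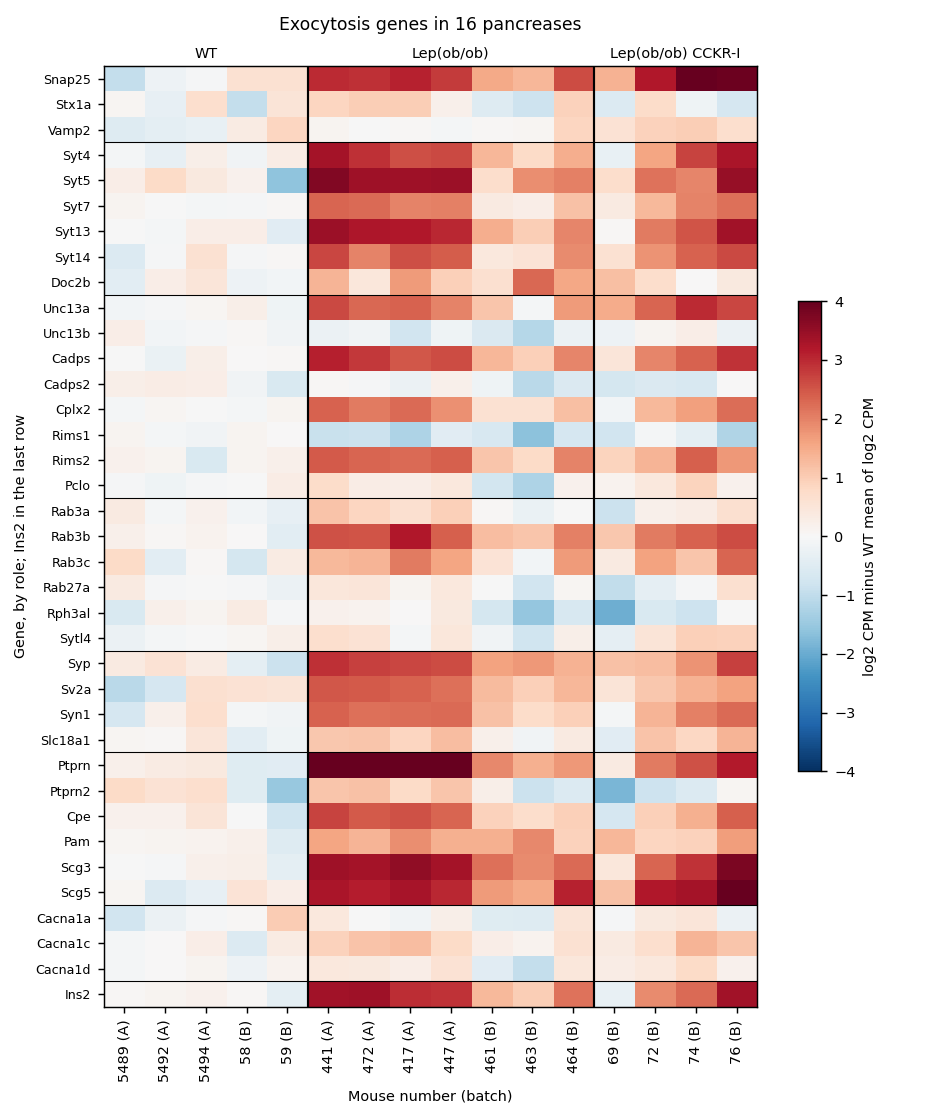
Log2 CPM of the 36 members tested and Ins2 in each of 16 mice, as the difference from the WT mean of the gene; columns are mice with their batch, rows are grouped by role. The 4 Lep(ob/ob) mice of batch A and CCKR-I mouse 76 are strongly coloured, and the CCKR-I mouse 69 is close to WT in most rows.

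Counts of called members differed by role. All 6 genes of the synaptotagmin group, Doc2b included, were called higher, as were 5 of 6 granule proteins, 3 of 4 vesicle membrane proteins tested and 4 of 8 docking and priming factors tested. Only 1 of 3 SNARE proteins, 1 of 6 Rab proteins and effectors, and 1 of 3 channel pores were called higher. Over all genes 5.93% were. The synaptotagmin group (Syt5, Syt14 and Doc2b) and the vesicle membrane proteins (Sv2a, Syn1 and Slc18a1) hold members that did not reach the filter in WT mice. So do docking and priming (Unc13a and Rims2) and the Rab group (Rab3b and Rab3c). Such members tend to be higher by the filter itself, so counts and medians by role are in part set by it. Median log2 fold changes by role were 2.30 for granule proteins, 2.11 for the synaptotagmin group, 1.81 for vesicle membrane proteins, 0.82 for docking and priming, 0.39 for SNARE proteins, 0.34 for the Rab group and 0.15 for channel pores.

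Among the SNARE proteins, Snap25 was the one that rose. It was at 0.683, 1.203, 1.36, 2.20 and 2.19 CPM in WT mice, at 11.9, 11.4, 12.9 and 10.4 CPM in the obese mice of batch A and at 4.29, 3.70 and 9.20 CPM in those of batch B. The groups did not overlap, and the fitted log2 fold change was 2.51 ± 0.48 (SE, adjusted p = 0.0031). Stx1a ranged from 1.10 to 3.63 CPM in WT and from 1.21 to 4.55 CPM in Lep(ob/ob) mice, with a log2 fold change of 0.39 ± 0.37 (SE, adjusted p = 0.56). Vamp2, the vesicle SNARE, was at 29.3 ± 12.8 CPM (SD, n = 5) in WT and 31.1 ± 8.21 CPM (SD, n = 7) in Lep(ob/ob) mice, and its log2 fold change was 0.13 ± 0.17 (SE, adjusted p = 0.67). Vamp2 was higher in the WT mice of batch B (34.7 and 49.4 CPM) than in those of batch A (18.9 to 22.5 CPM), and its difference between genotypes had opposite signs in the 2 batches (0.48 in A and -0.27 in B on the log2 scale).

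All 6 calcium sensors and relatives rose. Syt13, an atypical synaptotagmin abundant in endocrine cells, was at 9.56, 9.16, 11.6, 11.8 and 7.12 CPM in WT mice. In obese mice Syt13 was at 105.02, 92.7, 91.2 and 79.6 CPM in batch A and 26.9, 19.5 and 37.5 CPM in batch B, with no overlap and a log2 fold change of 2.51 ± 0.45 (SE, adjusted p = 0.0020). Syt7, the high-affinity sensor of insulin granule release, was narrow in WT mice at 7.10 ± 0.365 CPM (SD, n = 5) and reached 23.2 ± 11.7 CPM (SD, n = 7) in obese mice, which is a log2 fold change of 1.55 ± 0.32 (SE, adjusted p = 0.0063). The Lep(ob/ob) mice of batch B accounted for the low end of Syt7, at 9.10, 8.599 and 16.1 CPM, against 28.5 to 36.05 CPM in batch A.

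Syt4, which does not bind calcium through its first C2 domain and marks mature islet cells, was at 1.64 ± 0.317 CPM (SD, n = 5) in WT and between 2.84 and 17.3 CPM in Lep(ob/ob) mice, with a log2 fold change of 2.26 ± 0.51 (SE, adjusted p = 0.011). Syt5, another sensor of dense-core granules, had 0 to 7 counts in WT mice (0.303, 0.468, 0.340, 0.274 and 0 CPM) and passed the filter through the obese mice. Obese mice had Syt5 at 3.49 to 4.34 CPM in batch A and at 0.451, 1.13 and 1.28 CPM in batch B, a log2 fold change of 3.23 ± 0.54 (SE, adjusted p = 0.0012), and mouse 461 at 0.451 CPM lay within the WT range. Syt14 rose by 1.95 ± 0.40 on the log2 scale (SE, adjusted p = 0.0057), from 1.09 ± 0.349 CPM (SD, n = 5) to 4.54 ± 2.36 CPM (SD, n = 7).

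Doc2b, a calcium sensor with high affinity, followed another order. Its WT levels were 0.379, 0.669, 0.794, 0.457 and 0.487 CPM, and its Lep(ob/ob) levels were 1.56, 0.787, 1.99 and 1.16 CPM in batch A and 0.903, 3.11 and 1.79 CPM in batch B. The highest Doc2b mouse was thus 463, the obese mouse with the lowest Ins2. Its log2 fold change was 1.49 ± 0.38 (SE, adjusted p = 0.020), and the call was lost without any 1 of WT mice 5489, 58 or 59 or Lep(ob/ob) mouse 417 (adjusted p = 0.052 to 0.071). Mouse 463 also had the highest mean level of 4 adipocyte markers, at 7.97 on the log2 CPM scale against 2.72 to 4.64 in WT mice. With that level as a covariate the log2 fold change of Doc2b was 0.94 (adjusted p = 0.075), and without the 4 mice of highest adipocyte level (417, 461, 463 and 69) it was 1.21, still called. Whether adipose tissue in the samples had a part in the level of Doc2b was not tested further.

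Per kilobase of annotated exon, the order of the family was the same for its upper members in both genotypes. In WT mice Syt13 was at 2.62 ± 0.514, Syt7 at 0.949 ± 0.0488 and Syt4 at 0.421 ± 0.0814 CPM per kb (SD, n = 5), and these 3 did not overlap in mean and SD. Doc2b (0.128 ± 0.0389), Syt5 (0.116 ± 0.0721) and Syt14 (0.0910 ± 0.0293) lay within 1 SD of each other. In Lep(ob/ob) mice the levels were 17.2 ± 9.43 for Syt13, 3.10 ± 1.56 for Syt7, 2.30 ± 1.37 for Syt4, 1.06 ± 0.642 for Syt5, 0.381 ± 0.197 for Syt14 and 0.371 ± 0.183 CPM per kb for Doc2b (SD, n = 7), with Syt7 and Syt4 within 1 SD of each other.

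**Figure D2:**
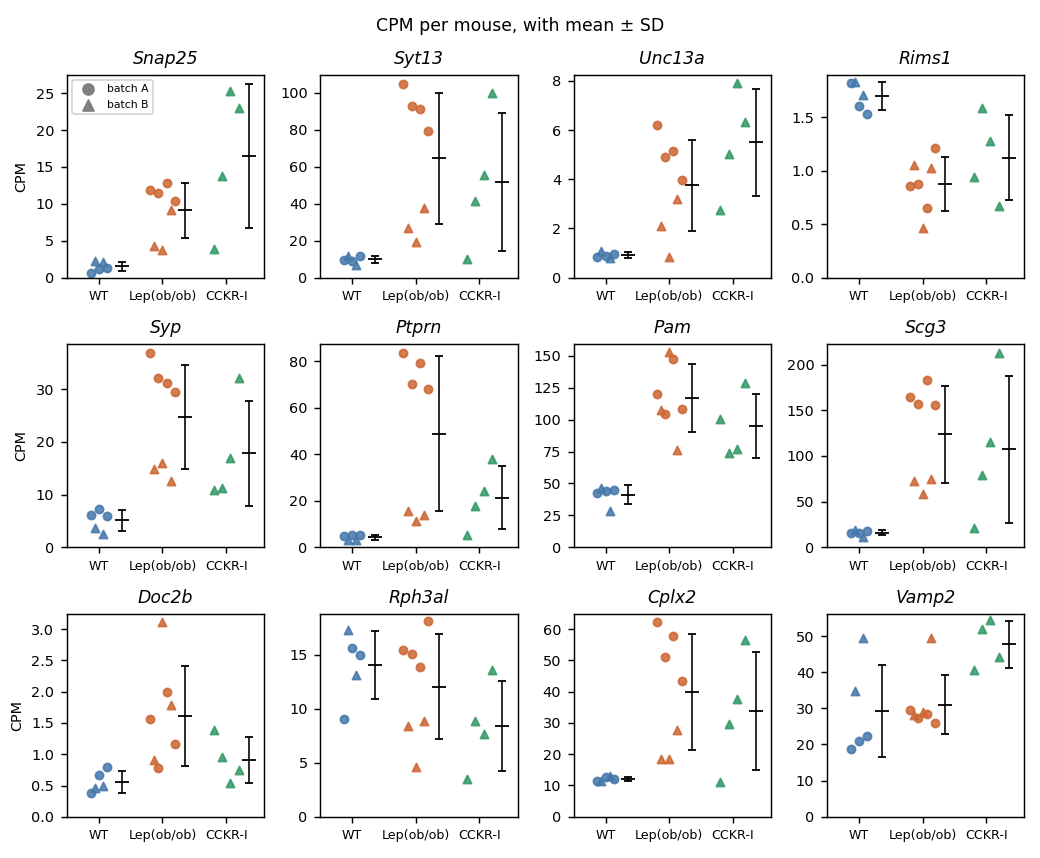
CPM of 12 members in each mouse (linear axes from 0), by group and batch, with the mean ± SD of each group beside the points. Snap25, Syt13, Syp, Ptprn, Pam, Scg3 and Cplx2 have every Lep(ob/ob) mouse above every WT mouse, Rims1 has every Lep(ob/ob) mouse below, and Vamp2 and Rph3al overlap.

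In docking and priming, Unc13a, Cadps and Rims2 rose and their paralogs Unc13b, Cadps2 and Rims1 did not, though the difference between paralogs was not itself tested. Unc13a and Rims2 did not reach the filter in WT mice, which tilts them to be higher in obese mice. Cadps, Unc13b, Cadps2 and Rims1 did reach it. Unc13a, a Munc13 priming factor of neurons and islets, was at 0.834, 0.869, 0.964, 1.10 and 0.791 CPM in WT mice. Obese mice had Unc13a at 6.19, 4.90, 5.13 and 3.96 CPM in batch A and 2.11, 0.856 and 3.19 CPM in batch B, a log2 fold change of 1.96 ± 0.37 (SE, adjusted p = 0.0029), and mouse 463 at 0.856 CPM was within the WT range. Its relative Unc13b, at 39.9 ± 4.87 CPM (SD, n = 5) in WT mice, was at 29.6 ± 7.06 CPM (SD, n = 7) in obese mice, which is a log2 fold change of -0.43 ± 0.16 (SE, adjusted p = 0.10). Per kilobase of exon, Unc13b was at 1.75 and Unc13a at 0.0722 CPM per kb in WT mice, and at 1.30 and 0.298 CPM per kb in obese mice (group means).

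Cadps, a priming factor of dense-core granules, was between 1.27 and 1.81 CPM in WT mice, between 9.12 and 14.0 CPM in the obese mice of batch A and at 4.06, 3.11 and 6.32 CPM in batch B, with a log2 fold change of 2.32 ± 0.38 (SE, adjusted p = 0.0010). Cadps2 was at 10.5 ± 2.55 CPM (SD, n = 5) in WT and 8.74 ± 2.38 CPM (SD, n = 7) in obese mice, which is a log2 fold change of -0.24 ± 0.17 (SE, adjusted p = 0.40). Rims2, the RIM scaffold of islet cells, was at 0.758, 0.735, 0.397, 0.732 and 0.791 CPM in WT and at 4.12, 3.76, 3.64, 4.00, 1.58, 1.21 and 2.94 CPM in obese mice, which is a log2 fold change of 2.09 ± 0.35 (SE, adjusted p = 0.0011). Rims1, its relative, was the member that fell.

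Rims1 was at 1.82, 1.60, 1.53, 1.83 and 1.70 CPM in WT mice, at 0.853, 0.875, 0.651 and 1.21 CPM in the obese mice of batch A and at 1.05, 0.467 and 1.02 CPM in those of batch B. The groups did not overlap in either batch, and the log2 fold change was -0.96 ± 0.26 (SE, adjusted p = 0.030). The call was lost on leaving out any 1 of 8 mice, the 5 WT mice and Lep(ob/ob) mice 441, 472 and 417 (adjusted p = 0.051 to 0.073), and without the 4 mice of highest adipocyte level the log2 fold change was -0.74 (adjusted p = 0.095).

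Cplx2, the complexin of endocrine cells, was tightly grouped in WT mice (11.3 to 13.0 CPM) and was at 62.4, 51.2, 57.9 and 43.4 CPM in batch A and 18.5, 18.3 and 27.8 CPM in batch B of obese mice, a log2 fold change of 1.60 ± 0.33 (SE, adjusted p = 0.0053). Cplx1, the neuronal complexin, had at most 4 counts in any mouse and was not tested. Pclo, the large scaffold Piccolo, was at 19.8 ± 2.46 CPM (SD, n = 5) in WT and 21.3 ± 8.40 CPM (SD, n = 7) in Lep(ob/ob) mice (log2 fold change 0.04 ± 0.25, SE, adjusted p = 0.95). The mean for Pclo hides a split by batch, with 23.8 to 32.5 CPM in the obese mice of batch A, above every WT mouse of that batch, and 11.8, 8.33 and 22.2 CPM in those of batch B.

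Of the Rab proteins, which tether granules to the membrane and recruit effectors, Rab3b was the one that rose. It had 5 to 9 counts in WT mice and passed the filter through the obese mice. Rab3b was at 0.531, 0.468, 0.510, 0.457 and 0.304 CPM in WT mice and at 3.13, 3.06, 5.02, 2.84, 1.204, 1.09 and 2.17 CPM in Lep(ob/ob) mice, without overlap (log2 fold change 2.51 ± 0.34, SE, adjusted p = 0.00023). Rab3a had a log2 fold change of 0.51 ± 0.21 (SE, adjusted p = 0.15) and Rab3c, between 0.0915 and 1.55 CPM over all mice, one of 1.56 ± 0.51 (SE, adjusted p = 0.069). Per kilobase, Rab3a remained the most abundant of the 3 at 3.03 ± 0.588 (SD, n = 5) in WT and 4.44 ± 1.60 CPM per kb (SD, n = 7) in Lep(ob/ob) mice, against 0.129 ± 0.0253 and 0.751 ± 0.381 CPM per kb for Rab3b.

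Rab27a and the effectors Rph3al (Noc2) and Sytl4 (granuphilin), which dock insulin granules, were not called in either direction. Rab27a was at 30.2 ± 4.90 CPM (SD, n = 5) in WT and 33.4 ± 8.45 CPM (SD, n = 7) in Lep(ob/ob) mice (log2 fold change 0.13 ± 0.22, SE, adjusted p = 0.76). Rph3al was at 9.03, 15.6, 14.9, 17.3 and 13.1 CPM in WT mice, at 15.4, 15.1, 13.9 and 18.1 CPM in the obese mice of batch A and at 8.43, 4.59 and 8.81 CPM in those of batch B. In batch B all obese mice were thus below both WT mice for Rph3al, and in batch A they were not (log2 fold change 0.29 ± 0.18 in A and -1.09 ± 0.47 in B, SE). Sytl4 likewise had a log2 fold change of 0.60 ± 0.17 in batch A and -0.37 ± 0.40 in batch B (SE), with 0.17 ± 0.25 over both (SE, adjusted p = 0.72).

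Of the vesicle membrane proteins, Syp, Sv2a and Syn1 rose. Syp, encoding synaptophysin, had the lowest p of all members: it was at 6.14, 7.22, 6.01, 3.57 and 2.56 CPM in WT mice, at 36.8, 32.0, 31.1 and 29.4 CPM in the obese mice of batch A and at 14.9, 16.1 and 12.6 CPM in batch B. The log2 fold change of Syp was 2.30 ± 0.24 (SE, adjusted p = 4.7e-05), and it was nearly the same within batch A (2.38) and batch B (2.23). Sv2a, a transporter-like vesicle protein, rose by 1.78 ± 0.36 and Syn1, which tethers vesicles, by 1.84 ± 0.38 on the log2 scale (SE, adjusted p = 0.0049 and 0.0062), and neither gene overlapped between the groups. Slc18a1, a vesicular monoamine transporter, had a log2 fold change of 0.77 ± 0.30 (SE, adjusted p = 0.13). Slc18a2, the other such transporter, had at most 13 counts in any mouse and was not tested.

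Granule proteins had the largest median difference of the roles. Ptprn, the granule membrane protein IA-2, was at 4.78, 5.15, 5.39, 2.93 and 2.98 CPM in WT mice. Obese mice had Ptprn at 83.5, 70.2, 79.4 and 68.3 CPM in batch A but at 15.8, 11.1 and 13.9 CPM in batch B, and the overall log2 fold change was 3.24 ± 0.41 (SE, adjusted p = 0.00017). Both batches were free of overlap, with log2 fold changes of 3.94 and 2.17. Its relative Ptprn2 (IA-2 beta, also called phogrin) was at 234, 205, 221, 99.8 and 48.1 CPM in WT mice. Ptprn2 was at 211 ± 99.8 CPM (SD, n = 7) in Lep(ob/ob) mice, overlapping WT, with a log2 fold change of 0.47 ± 0.27 (SE, adjusted p = 0.32). Within each genotype, every mouse of batch B lay below every mouse of batch A for Ptprn2. Per kilobase of exon, Ptprn2 exceeded Ptprn in both groups, at 18.8 against 0.999 CPM per kb in WT and 24.6 against 11.51 CPM per kb in obese mice (group means).

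Scg3, Scg5 and Cpe rose as well. Scg3, a granin that sorts hormones into granules, was between 11.7 and 18.5 CPM in WT mice, between 156 and 184 CPM in the obese mice of batch A and at 72.1, 58.3 and 74.5 CPM in batch B (log2 fold change 2.86 ± 0.41, SE, adjusted p = 0.00042). Scg5, the chaperone of the prohormone convertase PC2, was at 6.29, 4.01, 4.71, 8.69 and 7.12 CPM in WT and at 57.9, 53.3, 59.9, 49.2, 19.4, 17.2 and 51.3 CPM in Lep(ob/ob) mice (2.78 ± 0.46, SE, adjusted p = 0.0012). Cpe, carboxypeptidase E, which trims cleaved prohormones, rose by 1.81 ± 0.37 (SE, adjusted p = 0.0056) from 51.9 ± 15.3 CPM (SD, n = 5) to 202 ± 106 CPM (SD, n = 7).

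Pam, the enzyme that amidates peptide hormones, behaved differently from the other granule genes across mice. It was at 42.8, 43.7, 44.9, 46.3 and 28.1 CPM in WT mice, at 120.4, 104.5, 148 and 109 CPM in the obese mice of batch A and at 108, 153.1 and 76.4 CPM in batch B. Its log2 fold change of 1.52 ± 0.20 (SE, adjusted p = 0.00019) was alike in batch A (1.53) and batch B (1.57), and its highest mouse was 463, the obese mouse of lowest Ins2 and highest adipocyte marker level. With the adipocyte level as a covariate the log2 fold change of Pam was 1.33, and without the 4 mice of highest adipocyte level it was 1.27.

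The pores of voltage-gated calcium channels had the smallest median difference. Cacna1c, an L-type pore, was at 2.28, 2.47, 2.95, 1.65 and 3.10 CPM in WT and between 2.72 and 5.86 CPM in obese mice, which is a log2 fold change of 0.74 ± 0.22 (SE, adjusted p = 0.042). That call was lost on leaving out any 1 of 9 mice, which were WT 5489, 5492, 5494 and 58, Lep(ob/ob) 441, 472, 417 and 464, and CCKR-I 72 (adjusted p = 0.051 to 0.11). Cacna1d, the other L-type pore of islets, and Cacna1a, the P/Q-type pore, had log2 fold changes of 0.15 ± 0.20 and -0.04 ± 0.26 (SE, adjusted p = 0.69 and 0.95), each with a positive value in batch A (0.45 and 0.51) and a negative one in batch B (-0.21 and -0.72).

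The 2 batches were also fitted separately. In batch A alone 26 members were called higher in Lep(ob/ob) mice, where 6.75% of genes were, and 0 lower by edgeR, and the median log2 fold change was 2.03. In batch B alone, where 2 WT and 3 untreated obese mice were compared in a fit of the 9 mice of that batch, 0 members were called by edgeR and 0.0214% of genes were called higher, and 11 of 36 members had an unadjusted p below 0.05, as had 16.9% of all genes. The median of the members in batch B was 0.94. A test of the difference between the batches called 0 of 36 members by edgeR, where 0% of 13189 genes were called, and 8 of 35 by DESeq2, where 0.426% were. At an unadjusted p below 0.05 there were 19 members of 36 and 1574 genes of 13189, and 33 of the 36 estimates were negative, that is, smaller in batch B, as were 51.2% of those of all genes. Without Lep(ob/ob) mouse 464 the edgeR count was 20, where 9.79% of all genes were called. Ins2 had the same direction, at -1.36 ± 0.46 on the log2 scale (SE, adjusted p = 0.37).

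Since Ins2 rose too, the members were next compared at equal Ins2. Ins2 on the log2 CPM scale was added to the model as a covariate, and its slope gives the log2 change of a gene per 1 unit of log2 Ins2 among mice of the same group and batch. The slope was positive and passed the test for 25 of 36 members, where 9.05% of all genes had such a slope. It was close to 1 for Syt4 (1.03 ± 0.12), Syt13 (0.94 ± 0.07) and Scg5 (0.92 ± 0.09), and it was 0.83 ± 0.09 for Scg3 and 0.77 ± 0.08 for Cpe (SE). It was -0.02 ± 0.10 for Pam and -0.37 ± 0.17 for Doc2b (SE, adjusted p = 0.91 and 0.13). CCKR-I mouse 69, with Ins2 at the WT level, bears much of this: without it 13 members had a called positive slope, where 1.39% of all genes had one.

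**Figure D3:**
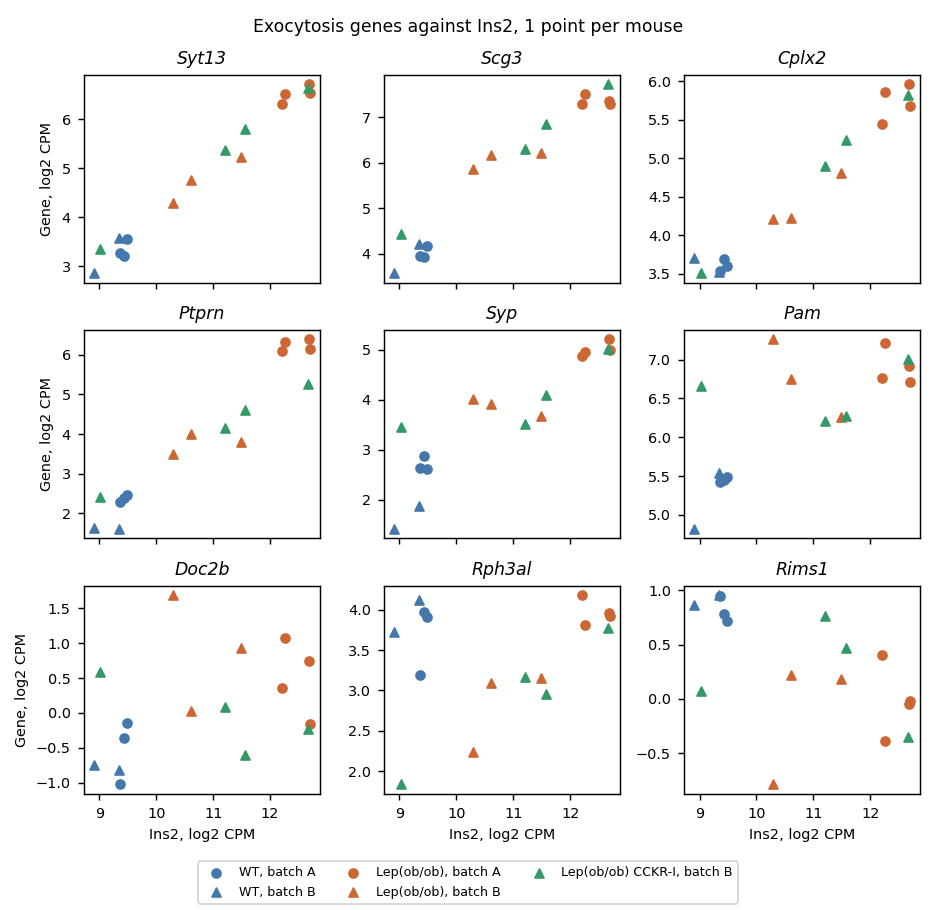
Log2 CPM of 9 members against log2 CPM of Ins2, 1 point per mouse, coloured by group and shaped by batch. Syt13 lies along 1 band through all groups, while Pam is high in Lep(ob/ob) mice at any Ins2 level and Rph3al has its lowest points in Lep(ob/ob) mice of low Ins2, treated or not.

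At equal Ins2 the median log2 fold change of the members between Lep(ob/ob) and WT mice was -0.03, against 1.55 without the covariate. Of the 21 members called higher, 6 stayed so and 15 did not pass, and 3 others became lower. For comparison, 14.8% of all genes were called higher in this model and 11.1% lower. The shares of members called higher, 6 of 36, and lower, 3 of 36, were thus near those of all genes. Those that passed were Doc2b (2.39 ± 0.54), Pam (1.56 ± 0.30), Syp (1.52 ± 0.28), Ptprn (1.30 ± 0.27), Rab3b (1.28 ± 0.39) and Scg3 (0.84 ± 0.24; log2 fold changes with SE, adjusted p = 0.0051, 0.0018, 0.0015, 0.0031, 0.024 and 0.017). Among Lep(ob/ob) mice, treated or not, only CCKR-I mouse 69 had Ins2 within the WT range, so these values extend the slope beyond the Ins2 levels that the groups share.

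The 3 that became lower were Rab27a and the effectors Rph3al and Sytl4, which bind Rab proteins at the granule. At equal Ins2 the log2 fold change was -1.77 ± 0.29 for Rph3al, -1.0005 ± 0.25 for Sytl4 and -0.89 ± 0.21 for Rab27a (SE, adjusted p = 0.00079, 0.0098 and 0.0073). None of these 3 passed the test without the covariate. In place of Ins2, the mean level of 5 pan-endocrine transcription factors as covariate left 14 members higher and 5 lower, where 15.8% of all genes were higher and 12.3% lower.

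**Figure D4:**
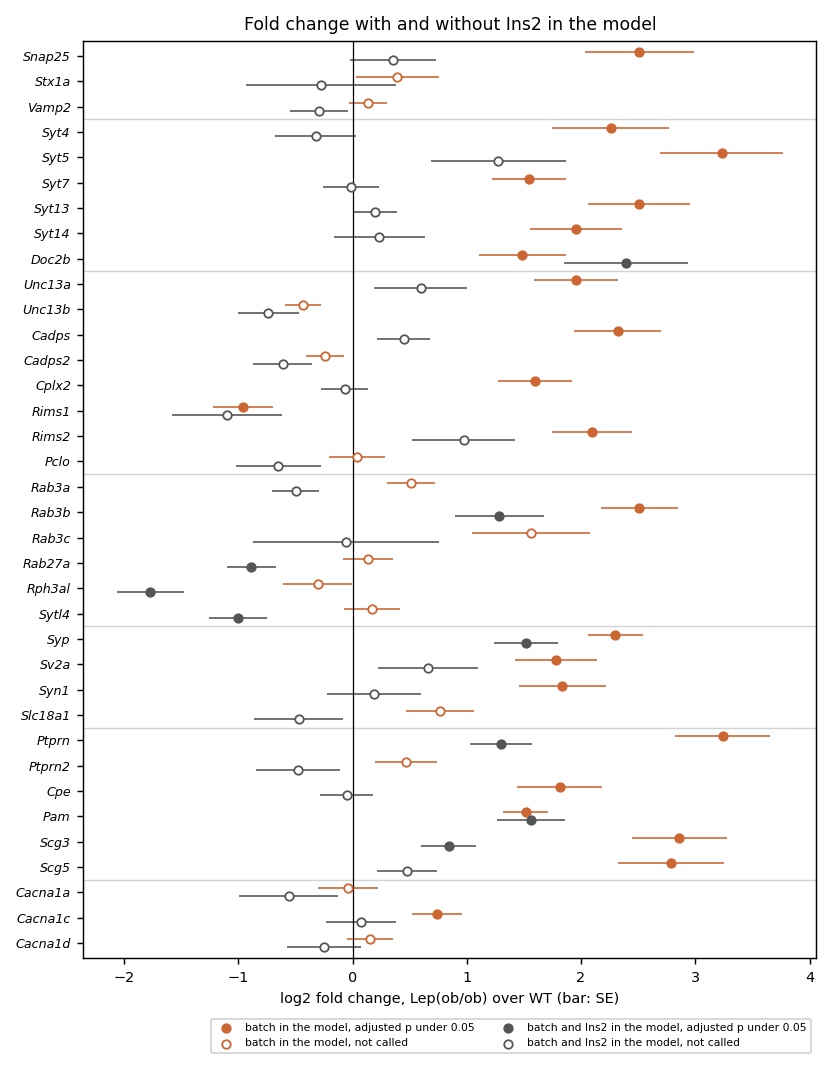
Log2 fold change of Lep(ob/ob) over WT for 36 members with SE bars, in the model with batch (orange) and in the model with batch and Ins2 (grey); filled points passed an adjusted p of 0.05. Syt13, Syt7, Cplx2 and Cpe move to near 0 with Ins2 in the model, Pam stays in place and Rph3al moves to -1.77.

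The ratio of each member to Ins2 within a mouse needs no model. Syt13 kept a nearly constant distance from Ins2, at -6.01 ± 0.17 in WT, -5.98 ± 0.18 in Lep(ob/ob) and -5.82 ± 0.15 in CCKR-I mice (log2 of the CPM ratio, SD, n = 5, 7 and 4). Ptprn was nearer to Ins2 in Lep(ob/ob) (-6.57 ± 0.57) than in WT mice (-7.23 ± 0.30), and Scg3 changed from -5.34 ± 0.13 to -4.93 ± 0.41. Unc13b went from -3.99 ± 0.24 to -6.89 ± 0.75 and Rims1 from -8.45 ± 0.28 to -11.81 ± 0.93. The median over the members was -6.89 in WT, -8.52 in Lep(ob/ob) and -7.83 in CCKR-I mice as the median mouse. By batch, it was -6.89 and -6.96 in WT mice of A and B and -8.80 and -7.96 in Lep(ob/ob) mice, and the CCKR-I mice, all of batch B, are near the last of these. The ratio takes a slope of 1 on Ins2 for every member, whereas the median fitted slope was 0.47, so it can be lower in obese mice while the median difference in the model with Ins2 is near 0.

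Blocking the CCK receptors was the second question. In CCKR-I against Lep(ob/ob) mice, 0 of 36 members were called by edgeR, where 0.0586% of all genes were, and 0 of the 29 to which DESeq2 gave an adjusted p, where 0.945% were. At an unadjusted p below 0.05 there were 4 members of 36 and 1951 genes of 13660. That member count was 18 without CCKR-I mouse 69, where 21.5% of all genes had such a p, 7 without WT mouse 59 (18.9% of all genes) and 2 without any 1 of Lep(ob/ob) mouse 463 and CCKR-I mice 72 and 74 (9.32, 9.31 and 7.12% of all genes), and it was 21 with lorglumide mice alone, where 16.3% of all genes had one. The median log2 fold change of the members was 0.40, and it was -0.21 without batch in the model, 0.074 without CCKR-I mouse 76, 0.20 without Lep(ob/ob) mouse 463 and 0.62 without CCKR-I mouse 69. All CCKR-I mice belong to batch B. Within batch B alone it was 0.68, with 0 members called by edgeR, where 0.0142% of all genes were, and 7 of 36 at an unadjusted p below 0.05, where 14.2% were.

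The 4 members of lowest p were Unc13a, Unc13b, Doc2b and Snap25. Unc13a was at 2.74, 5.02, 7.90 and 6.34 CPM in CCKR-I mice, against 2.11, 0.856 and 3.19 CPM in the untreated Lep(ob/ob) mice of batch B and 3.96 to 6.19 CPM in those of batch A. The groups overlapped, and the log2 fold change of Unc13a was 1.16, with a 95% interval of 0.31 to 2.01 (adjusted p = 0.28). Unc13b was at 34.6, 42.7, 47.9 and 33.9 CPM against 17.9 to 36.3 CPM, a log2 fold change of 0.56 (95% interval 0.15 to 0.97, adjusted p = 0.28). With the adipocyte marker level in the model, Unc13b was the 1 member called (log2 fold change 0.55, adjusted p = 0.047), where 1.68% of all genes were called.

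Snap25 reached 13.8, 25.3 and 22.9 CPM in 3 CCKR-I mice, above every untreated obese mouse, and was at 3.90 CPM in mouse 69. Its log2 fold change was 1.11 (95% interval 0.02 to 2.20, adjusted p = 0.35). Doc2b went the other way, at 1.39, 0.951, 0.547 and 0.742 CPM, with a log2 fold change of -0.94 (95% interval -1.83 to -0.06, adjusted p = 0.33). Cacna1d, Pclo, Slc18a1 and Sytl4 followed in order of p, with log2 fold changes of 0.50, 0.61, 0.68 and 0.56 (adjusted p = 0.36 to 0.40). For Syp the interval was -0.28 to 0.83 and for Rab27a -0.53 to 0.60 on the log2 scale, so changes of either sign within these bounds are compatible with the values.

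**Figure D5:**
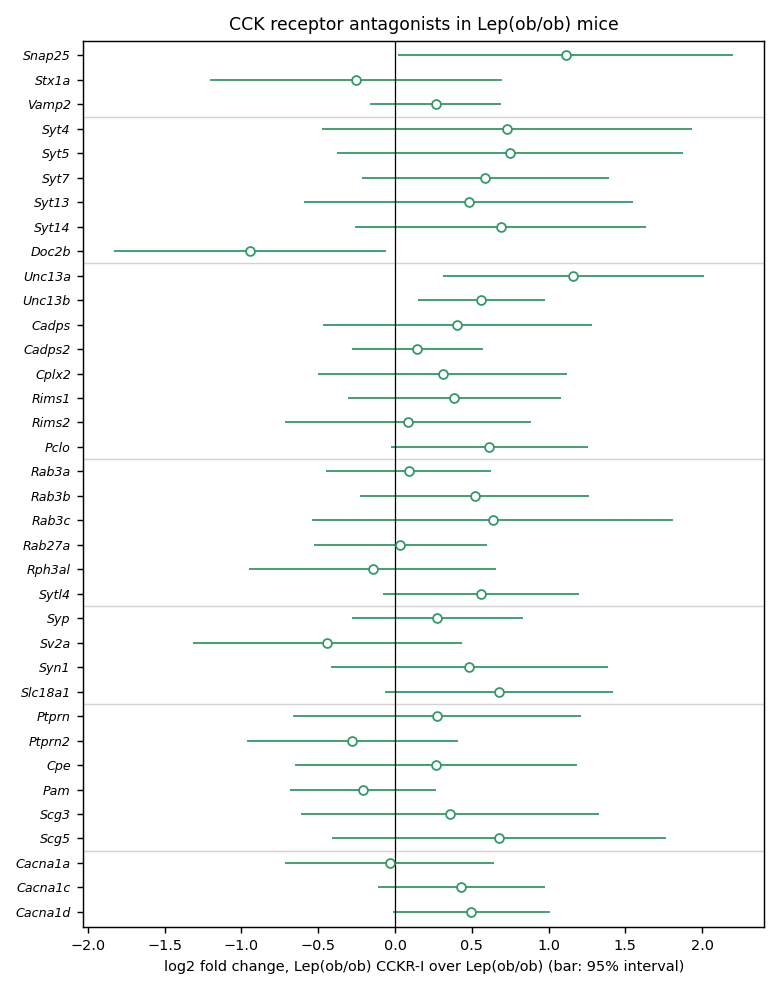
Log2 fold change of Lep(ob/ob) CCKR-I over Lep(ob/ob) mice for 36 members, with 95% intervals from the model with batch; no member passed an adjusted p of 0.05. The intervals of Unc13a, Unc13b, Snap25 and Doc2b exclude 0 before adjustment.

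With Ins2 in the model, 0 members were called by edgeR between CCKR-I and Lep(ob/ob) mice, where 0.124% of all genes were. At an unadjusted p below 0.05 there were 9 of 36 members and 20.7% of all genes. The median of the members fell from 0.40 to 0.21. The granule proteins, none of them called, had 5 of 6 estimates below 0, against 2 of 6 without Ins2. Of all genes 52.5% and 51.2% were below 0. Without CCKR-I mouse 76, the treated mouse of highest Ins2, 7 members were called, where 11% of all genes were, and without Lep(ob/ob) mouse 464 1 was, where 3.39% were.

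The drugs were given at different doses, so their values are set side by side only. On proglumide at 0.1 mg/mL, mice 69 and 72 had Snap25 at 3.90 and 13.8, Syt13 at 10.1 and 41.4, Ptprn at 5.25 and 17.7, and Scg3 at 21.4 and 79.1 CPM. On lorglumide at 0.05 mg/mL, mice 74 and 76 had Snap25 at 25.3 and 22.9, Syt13 at 55.7 and 99.9, Ptprn at 24.4 and 38.02, and Scg3 at 116 and 213 CPM. Syt13, Ptprn and Scg3 had the order of Ins2 in these 4 mice. Snap25 and Pam did not, with Pam at 101 and 74.1 CPM on proglumide and 77.0 and 128 CPM on lorglumide.

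The treated mice were also compared with lean mice. In CCKR-I against WT mice 20 members were called higher and 0 lower by edgeR, where 4.22% of all genes were higher and 1.35% lower, and this comparison shares the WT mice with that of untreated obese mice. With only these 2 groups in the fit 7 of 35 members were higher, where 1.42% of all genes were. Mouse 69 overlapped the WT mice in some of these genes, with Syt13 at 10.1 CPM (7.12 to 11.8 in WT) and Ptprn at 5.25 CPM (2.93 to 5.39 in WT). Syp (2.58 ± 0.30), Rab3b (3.03 ± 0.42), Ptprn (3.51 ± 0.49), Unc13a (3.12 ± 0.44), Scg3 (3.21 ± 0.49) and Snap25 (3.62 ± 0.56) had the lowest p (log2 fold changes with SE, adjusted p = 0.00012 to 0.00092). Rims1 was not called, at -0.58 ± 0.34 (SE, adjusted p = 0.44), nor was Doc2b, at 0.54 ± 0.49 (SE, adjusted p = 0.65). Slc18a1 was called here, at 1.44 ± 0.39 (SE, adjusted p = 0.035), a call lost on leaving out any 1 of 10 mice, WT 5489, 5492 and 58, Lep(ob/ob) 441, 472, 447 and 461, and CCKR-I 72, 74 and 76 (adjusted p = 0.053 to 0.099), and Sv2a was not, at 1.34 ± 0.43 (SE, adjusted p = 0.084).

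These values lean on the batch term, which is set by WT and untreated mice. In batch B alone, with 2 WT mice, 0 members were called by edgeR, where 0.0926% of all genes were, and 19 of 36 had an unadjusted p below 0.05, where 9.96% had one. With Ins2 in the model, Unc13a, Rab3b, Syp, Ptprn, Pam and Scg5 were called higher than in WT mice and Rab27a and Rph3al lower, 6 and 2 members, where 5.37% of all genes were higher and 4.44% lower. Without CCKR-I mouse 69 these counts were 0 and 0, where 0.0433% of all genes were higher and 0.0289% lower, and without WT mouse 58 they were 3 and 1, where 1.52% and 0.737% were.

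Other genes of the pathway, 69 in number, were read beside the members. Of the 56 tested, 18 were higher and 2 lower in Lep(ob/ob) than in WT mice, where 5.93% and 3.14% of all genes were. The 2 lower were thus near the share of all genes, and the median log2 fold change of the list was 0.13. The largest rises were those of the granule cargo proteins Vgf (4.81, adjusted p = 0.00049) and Chgb (3.47, adjusted p = 0.00022), on the log2 scale, and 2 were lower, Rab27b (-0.82, adjusted p = 0.0095) and its effector Myrip (-0.61, adjusted p = 0.020). In CCKR-I against Lep(ob/ob) mice 1 of the 56 was called, the channel subunit Cacnb2 (1.29, adjusted p = 0.037), where 0.0586% of all genes were. With Ins2 in the model, 6 of the 56 were higher and 4 lower in Lep(ob/ob) than in WT mice, smaller shares than the 14.8% and 11.1% of all genes.

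Genes of zymogen granule release in acinar cells, such as Vamp8 and Stx3, made a separate list of 11. In Lep(ob/ob) against WT mice 0 were higher and 1, Rab27b, which both lists hold, was lower, beside 5.93% and 3.14% of all genes. The median log2 fold change of the 11 was -0.21. At an unadjusted p below 0.05 there were 3 of the 11 and 23.8% of all genes. With Ins2 in the model, 2 of the 11 were higher and 4 lower, beside the 14.8% and 11.1% of all genes in that model. In CCKR-I against Lep(ob/ob) mice 0 of the 11 were called by edgeR, and 0 had an unadjusted p below 0.05, where 0.0586% and 14.3% of all genes did.

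Markers of other cells were read beside these results. The 6 acinar markers summed to a median of 299865 CPM in WT, 206659 CPM in Lep(ob/ob) and 42697 CPM in CCKR-I mice. Batch moved with this sum: in batch A it was 299865 to 331113 CPM in WT and 206659 to 312021 CPM in untreated obese mice, and in batch B 45282 to 105315 CPM in WT, 65811 to 167565 CPM in Lep(ob/ob) and 25460 to 83672 CPM in CCKR-I mice. Within batch B the groups overlapped, and the part of the acinar level in the members' differences was not tested. Of 8 neuron markers, 3 passed the filter (Elavl4, Nefm and Snap91, which islet cells can also express), and the summed level of the list was 1.13 to 1.55 CPM in WT, 1.25 to 7.47 CPM in Lep(ob/ob) and 1.39 to 7.29 CPM in CCKR-I mice. Of the defining markers of autonomic neurons, Dbh had 0 counts in every mouse and Chat at most 1. Of 5 Schwann cell markers 3 passed the filter, and the summed level of the list was 2.21 to 4.68 CPM in WT, 1.58 to 4.66 CPM in Lep(ob/ob) and 4.25 to 6.601 CPM in CCKR-I mice. The 4 adipocyte markers summed to 40.3 to 115 CPM in WT, 54.7 to 1392 CPM in Lep(ob/ob) and 187 to 1077 CPM in CCKR-I mice. Gcg, the glucagon gene of alpha cells, was at 207 to 497 CPM in WT mice, 175.7 to 910.1 CPM in untreated obese mice and 161 to 1557 CPM on an antagonist. Sst, somatostatin of delta cells, was at 15.2 to 19.6, 7.90 to 27.6 and 2.02 to 45.8 CPM in the same order. In Lep(ob/ob) against WT mice their log2 fold changes were 0.93 ± 0.44 and 0.04 ± 0.45 (SE, edgeR adjusted p = 0.216 and 0.974), and neither passed the test. Ppy, the pancreatic polypeptide of PP cells, moved with the members, from 2.21 to 4.21 CPM in WT to 3.35 to 35.9 CPM in untreated and 5.30 to 46.2 CPM in treated obese mice. Ppy rose by 2.59 ± 0.52 in Lep(ob/ob) against WT mice (log2 fold change with SE, edgeR adjusted p = 0.0050), and the value was 0.15 ± 0.39 at equal Ins2 (adjusted p = 0.80). The 8 beta cell markers summed to 1062 to 1366 CPM in WT, 2300.0 to 11699 CPM in Lep(ob/ob) and 1392 to 13024 CPM in CCKR-I mice, and the part of cell composition in the members' differences was not tested beyond the Ins2 and transcription factor covariates.

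Reads that could be shared with other genes were counted from the annotation (GENCODE vM21, GRCm38). The largest share of a member's 50-base stretches found in transcripts of another gene was 3.59%, for Rab27a, and 2.10% for Cplx2. Exons of 13 members overlap a gene on the other strand, most of all Syp (16.8% of its exon length, with Gm14703) and Syt4 (14.5%, with Gm26658). The libraries mark strand, but whether the counting used it is not given in the sources used here.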

How the data were processed

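Pancreas RNA was sequenced as stranded polyA libraries on a NovaSeq. Per the submitters' processing notes, the authors used Trim Galore 0.6.7 with cutadapt 3.5, STAR 2.7.9, DESeq2 and the mm10 build. The deposited table of raw counts per gene symbol was used as it stands, and the read counter, its strand setting and the annotation are not given in the sources used here. The deposited table of normalized values was not used. Some marker genes are not reported here.

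Levels are CPM on TMM-scaled library sizes, and log2 CPM uses a prior count of 2. Genes were filtered with filterByExpr on group. The quasi-likelihood test of edgeR 4.0.16 (R 4.3.3) was fitted to all 16 mice with group and batch, adjusted by Benjamini-Hochberg over 13660 genes, with adjusted p under 0.05 as the threshold. In a further fit log2 CPM of Ins2 was a covariate, and the interaction of genotype and batch was fitted to 12 mice. Intervals are 95%. The scripts were tested on simulated data. Alternatives were DESeq2 1.42.0, other scalings, filters, covariates and sets of mice. The adipocyte covariate and the fit without the 4 mice of highest adipocyte level were chosen after seeing the data.

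The members and gene lists were chosen with earlier results of these data known. All members are accounted for by role. Values per mouse were given for the 12 members of lowest p in Lep(ob/ob) against WT, the leading ones in CCKR-I against Lep(ob/ob), and members whose direction differed between batches or turned with the Ins2 covariate, some as ranges. Promoter sequences are from RefSeq and gene positions from GENCODE vM21. Each mouse is 1 sample, and totals of 9.87 to 34.5 M counts limit the members of few reads.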

Additional observations from a re-analysis of the deposited data

Results flagged for a closer look

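Of 111 groups of 4 to 7 mice examined (members and Ins2 by group), 8 held a mouse whose gap to its nearest neighbour was a large part of the group's range by Dixon's criterion, which chance passes in about 1 in 20 groups. WT mouse 59 was the lowest in 4 of them. Its Ins2 was 481 CPM against 649.9 to 719 CPM in the other WT mice (gap over range 0.749), its Pam 28.1 against 42.8 to 46.3 CPM (0.842), its Rab3b 0.304 against 0.457 to 0.531 CPM (0.721), and its Syt5 0 against 0.274 to 0.468 CPM (0.753).

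The other 4 lay in 4 different mice. Rims2 was 0.397 CPM in WT mouse 5494 against 0.732 to 0.791 CPM (0.882). Vamp2, the vesicle SNARE, was 49.5 CPM in Lep(ob/ob) mouse 464 against 25.9 to 29.4 CPM (0.801). Rab27a was 17.7 CPM in Lep(ob/ob) mouse 463 against 29.8 to 41.6 CPM (0.61). Cadps2 was 10.2 CPM in CCKR-I mouse 76 against 6.24 to 6.76 CPM (0.839). Causes were not tested.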

How the results depend on the processing

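For Lep(ob/ob) against WT, the 21 higher members became 13 with at least 10 counts required in every mouse. That filter leaves fewer genes tested, of which 4.09% were higher. The members became 0 in batch B alone (0.0214% of all genes), which compares 2 WT with 3 Lep(ob/ob) mice in a fit of 9. With Ins2 as covariate they became 6 (14.8%), and on leaving out 1 mouse they were 19 to 24 (4.08 to 6.95%). The 20 higher in CCKR-I than in WT mice became 13 with that count minimum, where 2.63% of all genes were higher. They became 7 with only the 2 groups compared (1.42%), 0 in batch B alone (0.0641%) and 10 with proglumide mice alone (1.27%). They became 6 with either the Ins2 or the pan-endocrine transcription factor covariate (5.37 and 4.93%). On leaving out 1 mouse they were 18 to 24 (3.02 to 5.02%). The 0 members called between CCKR-I and Lep(ob/ob) mice became 1 with the adipocyte covariate, where 1.68% of all genes were called. They stayed 0 on leaving out any 1 mouse (0 to 0.0657% of all genes). The median of the members in that comparison, 0.40, was -0.21 without batch, -0.15 with proglumide mice alone, -0.17 with the pan-endocrine covariate, 0.79 with lorglumide mice alone and 0.074 to 0.617 on leaving out 1 mouse.

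With Ins2 in the model, pan-endocrine transcription factors in its place gave 14 higher and 5 lower members for Lep(ob/ob) against WT. There 15.8 and 12.3% of all genes were, and for CCKR-I against WT 1 member was lower, where 2.5% were. Leaving out batch gave 6 lower for Lep(ob/ob) against WT, 2 called for CCKR-I against Lep(ob/ob) and 5 lower for CCKR-I against WT, where 8.27, 2.81 and 16.8% of all genes were. On leaving out 1 mouse, the 6 higher and 3 lower in Lep(ob/ob) against WT were 4 to 6 and 2 to 6 (5 lower without mouse 461, 6 without mouse 76). The 0 called in CCKR-I against Lep(ob/ob) were 0 to 7 (0 to 11% of all genes). The 6 higher and 2 lower in CCKR-I against WT were 0 to 7 and 0 to 2 (0.0433 to 6.12% and 0.0289 to 5.68%). The 25 members with a positive Ins2 slope were 13 to 25 (1.39 to 9.86% of all genes). The genotype by batch count of 0 was 8 by DESeq2 (0.426% of all genes) and 0 to 20 on leaving out 1 mouse (0 to 9.79%). The members' level relative to Ins2 in WT, -6.89, was -6.70 over members with a mean log2 CPM of at least 0.

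Signs turned with Ins2 in the model for Cplx2 (-0.069), Cpe (-0.051), Syt7 (-0.012) and Syt4 (-0.32) in Lep(ob/ob) against WT and for Syt4 (-0.084) and Cpe (-0.14) in CCKR-I against WT, and with the pan-endocrine covariate for Syt4 (-0.10) in the latter. None of these passed the test there, and the cause was not tested. No paired analysis was possible because mouse numbers are not shared between groups. Batch B libraries held fewer counts in total than those of batch A, and the part of depth in the calls was not tested.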
